A study of Mus musculus with 6 samples.

Results

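The genes described here are 9 markers of conventional dendritic cells, Flt3, Zbtb46, Batf3, Clec9a, Xcr1, Itgae, Dpp4, Ccr7 and Fscn1, measured in sorted macrophages of pancreatic islets and of epididymal fat. They were chosen by symbol, and each symbol matched 1 row of a table of 50600 genes. Their levels were set beside Itgax, which encodes CD11c, an integrin subunit that dendritic cells carry and that many tissue macrophages carry as well. Islet macrophages (3 libraries) were compared with fat macrophages (3 libraries), all from 12-week-old C57BL/6J male mice on a chow diet, with treatment given as none. Live cells that stained for CD45, F4/80 and CD64 were sorted, 10 ng of total RNA went into each stranded total RNA library, and the batches 2, 4 and 6 each hold 1 islet and 1 fat library. The labels do not say whether an islet library came from 1 mouse or from a pool.

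Conventional dendritic cells are antigen-presenting cells that depend on the cytokine receptor FLT3 and are marked by the transcription factor ZBTB46. They fall into cDC1, which need BATF3 and IRF8 and take up dead cells, and cDC2, which depend on IRF4, and both kinds raise CCR7 and FSCN1 when they mature and migrate to lymph nodes. Macrophages of the islet are known for high CD11c and MHC class II, features that were once used to call such cells dendritic cells. CD64, used in the sort, is a macrophage marker that most steady-state conventional dendritic cells lack.

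All 9 genes are protein-coding, and their spans are given on GRCm38 from GENCODE M21. Among the regulators, Flt3 (ENSMUSG00000042817.15) lies at chr5:147330741-147400489 on the minus strand, Zbtb46 (ENSMUSG00000027583.13) at chr2:181387762-181459426 on the minus strand and Batf3 (ENSMUSG00000026630.9) at chr1:191097847-191108945 on the plus strand. Of the surface genes, Clec9a (ENSMUSG00000046080.17) lies at chr6:129408862-129424763, plus strand, Xcr1 (ENSMUSG00000060509.4) at chr9:123852315-123862029, minus strand, Itgae (ENSMUSG00000005947.11) at chr11:73090583-73147446, plus strand, and Dpp4 (ENSMUSG00000035000.8) at chr2:62330073-62412231, minus strand. Of the migration genes, Ccr7 (ENSMUSG00000037944.8) lies at chr11:99144196-99155077, minus strand, and Fscn1 (ENSMUSG00000029581.14) at chr5:142960343-142973185, plus strand.

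Total counts were 4089980 to 6923475 per islet library and 7450890 to 9235591 per fat library. Across 12152 tested genes, log2 values correlated at 0.853 to 0.915 between islet libraries and at 0.963 to 0.969 between fat libraries. A set of 7 heat shock genes took 9.29%, 10.3% and 0.785% of counts in islet libraries 2, 4 and 6, and 0.252% to 0.284% in the fat libraries. Islet libraries 2 and 4 therefore stood apart from islet library 6, and the fits were repeated without these 2 libraries. That fit leaves 1 islet library and holds no spread between islet libraries, so it is read for effect sizes.

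Itgax RNA was higher in islet than in fat macrophages, and CD11c protein was not among the sorted markers. Itgax was read at 643, 872 and 557 CPM (counts scaled to a common TMM-adjusted library size) in islet libraries 2, 4 and 6, against 14.2, 7.56 and 29.2 CPM in fat libraries 2, 4 and 6. That is a fitted log2 difference of 5.34 ± 0.54 (SE; edgeR quasi-likelihood adjusted p = 3.51e-04). The genes of the sorted proteins were read in every library. Ptprc (CD45) averaged 832 ± 188 CPM in the islet libraries, against 458 ± 47.8 CPM in the fat libraries, Adgre1 (F4/80) 767 ± 291 CPM in islet against 511 ± 63.9 CPM in fat, and Fcgr1 (CD64) 84.7 ± 18.5 CPM in islet against 62.2 ± 9.95 CPM in fat (SD, n = 3 per tissue). None of these 3 passed in edgeR (adjusted p = 0.0639, 0.265 and 0.264). Without islet libraries 2 and 4, the log2 difference of Fcgr1 was 0.69, against 0.45 with all libraries. That of Adgre1 was -0.16, against 0.58 with all libraries. Without islet library 6, Ptprc and Adgre1 passed as higher (adjusted p = 0.00475 and 0.0261), and Ptprc did so in DESeq2 and limma voom (0.0138 and 0.0393).

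The dendritic cell genes did not all move in the direction of Itgax. Of the 9 genes, 7 passed the filter on low counts and were tested, and among these Dpp4 was higher in islet macrophages, Zbtb46 and Batf3 were lower, and Flt3, Clec9a, Ccr7 and Fscn1 did not pass. Xcr1 and Itgae fell under the filter. The threshold was a Benjamini-Hochberg adjusted p of 0.05 over all 12152 genes, of which 8.97% were higher and 10.5% lower in islet macrophages. In either direction 19.4% of all genes were called, and 3 of 7 genes is too few to read against that share. The median log2 difference of the 7 was 0.78, beside 0.01 over all tested genes. That median is the value of Flt3, 0.78 ± 0.99 (SE), which did not pass (edgeR adjusted p = 0.638). It is therefore not read as a shift of the 7 genes toward islet. Summed over all 9 genes, the level was 31.0 to 52.8 CPM over the islet libraries and 49.8 to 69.8 CPM over the fat libraries, beside 557 to 872 CPM for Itgax alone in islet.

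**Figure D1:**
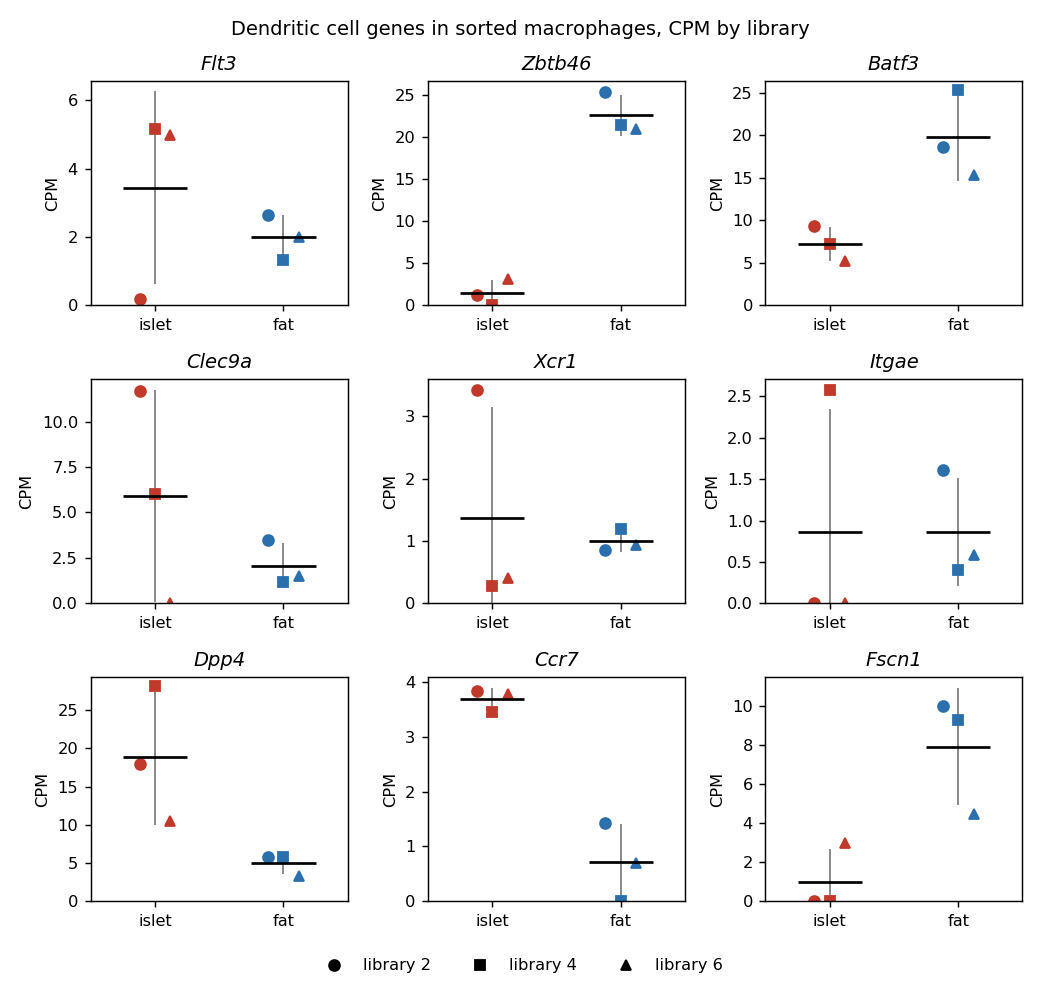
CPM of the 9 dendritic cell genes (vertical axes, linear, each with its own range) in islet (red) and fat (blue) libraries; symbols mark the library number, the black bar the mean and the grey line 1 SD on each side (n = 3). Zbtb46, Batf3 and Fscn1 lie lower in every islet library than in any fat library, Dpp4 and Ccr7 lie higher, and the other four overlap.

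Zbtb46, the transcription factor that separates conventional dendritic cells from most macrophages, was the gene with the largest difference. It was read at 1.21, 0 and 3.10 CPM in islet libraries 2, 4 and 6, from 6, 0 and 23 reads, against 25.3, 21.4 and 20.9 CPM in fat libraries 2, 4 and 6, from 268, 161 and 178 reads. Every islet library lay below every fat library, and the 0 in islet library 4 allows a level of up to 0.860 CPM (3 counts). The means were 1.44 ± 1.56 CPM in the islet libraries, against 22.5 ± 2.43 CPM in the fat libraries (SD, n = 3), a fitted log2 difference of -3.81 ± 0.75 (SE) (edgeR adjusted p = 0.00834). The gene passed in each of 15 alternative fits (adjusted p at most 0.0458), and within batches 2, 4 and 6 islet differed from fat by -3.92, -5.45 and -2.57 on the log2(CPM + 0.5) scale. Its fitted log2 difference was -5.01 without islet library 6, -2.94 without islet libraries 2 and 4 and -4.45 in limma voom.

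Endothelial cells also express Zbtb46, so their markers are given beside it. The 6 endothelial markers summed to 13.3, 7.45 and 23.3 CPM in islet libraries 2, 4 and 6, against 155, 64.6 and 25.1 CPM in fat libraries 2, 4 and 6. Cldn5, a tight junction gene of endothelium, had no count in any islet library. Within fat, Cdh5, the endothelial cadherin, was read at 56.7, 24.4 and 8.47 CPM in libraries 2, 4 and 6, while Zbtb46 lay between 20.9 and 25.3 CPM. Their part in the tissue difference was not tested. In sorted bulk samples, fewer cells of a type and less RNA per cell cannot be told apart.

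Batf3, the partner of JUN proteins that cDC1 need for their development, was lower in islet macrophages. It was read at 9.27, 7.17 and 5.25 CPM in islet libraries 2, 4 and 6, against 18.6, 25.3 and 15.3 CPM in fat libraries 2, 4 and 6. The tissues did not overlap, and within batches 2, 4 and 6 islet differed from fat by -0.97, -1.75 and -1.46 on that log2(CPM + 0.5) scale. The fitted log2 difference was -1.45 ± 0.39 (SE), 2.74-fold lower (edgeR adjusted p = 0.0295). The call was lost without fat library 2, 4 or 6 (edgeR adjusted p = 0.103, 0.129 and 0.0639), where the log2 difference was -1.51, -1.31 and -1.62.

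Dpp4, the surface peptidase CD26, was the only 1 of the 7 that passed as higher in islet macrophages. It was read at 17.9, 28.1 and 10.5 CPM in islet libraries 2, 4 and 6, against 5.77, 5.84 and 3.29 CPM in fat libraries 2, 4 and 6. Every islet library lay above every fat library, by 1.56, 2.17 and 1.54 on the log2(CPM + 0.5) scale within batches 2, 4 and 6. The fitted log2 difference was 1.91 ± 0.48 (SE), 3.76-fold higher (edgeR adjusted p = 0.0234). The call was lost without islet library 2 (edgeR adjusted p = 0.0576) and without fat library 2, 4 or 6 (0.0846, 0.0859 and 0.0993). Without islet libraries 2 and 4 the log2 difference was 1.0.

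T cells, fibroblasts and adipose progenitors also carry Dpp4. The 9 fibroblast and progenitor markers summed to 0.605, 2.58 and 2.56 CPM in islet libraries 2, 4 and 6, against 395, 342 and 104 CPM in fat libraries 2, 4 and 6, and 7 of the 9 had no islet reads. The 14 T and natural killer cell markers summed to 154, 70.8 and 383 CPM in islet libraries 2, 4 and 6, against 18.6, 23.6 and 30.5 CPM in fat libraries 2, 4 and 6. Most of the islet sum was Il7r, which was higher in islet (log2 5.16; edgeR adjusted p = 0.00225), and Cd4 was read in every islet library, while 8 of the 14, among them Cd3e, Cd3d, Cd3g and Trac, had no islet reads. Hormone and granule genes of islet endocrine cells summed to 9323, 6101 and 3408 CPM in islet libraries 2, 4 and 6, against 0 to 5.97 CPM in the fat libraries. Their part in the Dpp4 difference was not tested. Of the exon length of Dpp4, 3.67% overlaps Gm13561 on the opposite strand.

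The windows around the start sites of the 3 genes that passed are shown because these genes carry the tissue differences; sequences are from RefSeq on GRCm38.p6, whose table held 7 of the 9 genes (Ccr7 and Itgae were not matched). Each window runs from 250 bases before to 50 bases after the start site, on the gene's strand. On both strands, 6 motifs were searched: the GC box as GGGCGG, the TATA box as TATAAA, the AP-1 site as TGANTCA, the PU.1 site as GAGGAAGT, the E-box as CACGTG and the interferon response element. Capitals mark TGANTCA in Zbtb46, GGGCGG in Batf3 and the interferon response element, on the reverse strand, in Dpp4.
Zbtb46, chr2:181424339-181424638, minus strand: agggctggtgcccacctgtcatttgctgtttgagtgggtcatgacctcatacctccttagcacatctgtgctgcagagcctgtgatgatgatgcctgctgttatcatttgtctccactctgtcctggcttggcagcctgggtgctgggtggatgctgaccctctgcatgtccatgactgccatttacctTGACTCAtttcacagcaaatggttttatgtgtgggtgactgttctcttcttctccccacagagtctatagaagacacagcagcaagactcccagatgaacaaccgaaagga
Batf3, chr1:191098164-191098463, plus strand: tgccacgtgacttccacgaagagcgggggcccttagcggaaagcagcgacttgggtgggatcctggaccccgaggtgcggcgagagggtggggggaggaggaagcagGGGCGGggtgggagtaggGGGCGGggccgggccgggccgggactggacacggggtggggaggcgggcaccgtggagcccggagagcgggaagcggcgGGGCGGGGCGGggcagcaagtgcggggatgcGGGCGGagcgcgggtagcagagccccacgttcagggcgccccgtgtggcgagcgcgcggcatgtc
Dpp4, chr2:62412182-62412481, minus strand: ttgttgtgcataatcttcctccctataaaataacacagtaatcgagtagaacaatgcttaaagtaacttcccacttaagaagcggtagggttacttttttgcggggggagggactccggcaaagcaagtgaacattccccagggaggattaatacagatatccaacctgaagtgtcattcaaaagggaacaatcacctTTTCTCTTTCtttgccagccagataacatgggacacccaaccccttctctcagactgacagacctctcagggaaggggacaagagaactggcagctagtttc

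The Zbtb46 window holds 1 TGANTCA, which starts at position -61 from the RefSeq start site. That motif occurs in 7.81% of 32851 promoter windows. The RefSeq start site used for this window lies 35038 bases downstream of the 5′ end of the GENCODE gene, so the window lies within the gene. Whether transcription of Zbtb46 starts there in these cells was not tested. The window and its motif are therefore not read as a promoter of Zbtb46. The Batf3 window holds 5 matches to GGGCGG, 2 of which overlap by 1 base, and this motif is in 35.7% of windows. Its G and C content was 75.7%, at or above that of 96.9% of windows, and its start site lies 567 bases downstream of the GENCODE 5′ end. The Dpp4 window holds 1 match to the interferon response element, starting at position -52, which 3.44% of windows hold, and 45.3% of its bases are G or C. No window of the 7 genes held GAGGAAGT, found in 3.2% of windows, which says only that these letters are not there. The Batf3 window also holds CACGTG at position -247, and the Dpp4 window TATAAA at position -227.

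**Figure D2:**
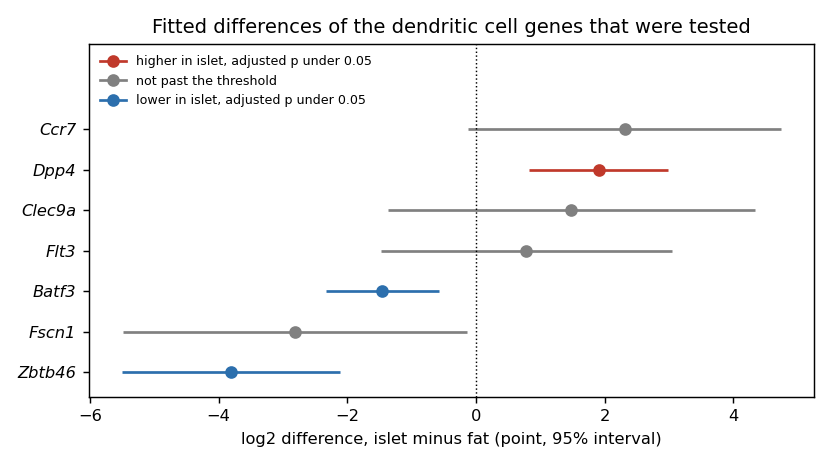
Fitted log2 difference, islet minus fat, with its 95% interval (edgeR, 3 libraries per tissue), for the 7 dendritic cell genes that were tested; red is higher and blue lower in islet past the threshold, grey did not pass. Dpp4 lies above 0, Zbtb46 and Batf3 below 0, and the grey intervals span several log2 units.

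The receptor and the cDC1 surface genes were low and varied between islet libraries. Flt3, the growth factor receptor of dendritic cells, was read at 0.202, 5.16 and 4.98 CPM in islet libraries 2, 4 and 6, against 2.65, 1.33 and 2.00 CPM in fat libraries 2, 4 and 6. Islet library 2, with 1 read, lay below all fat libraries and the other islet libraries above them, with within-batch log2(CPM + 0.5) differences of -2.17, 1.63 and 1.13 for batches 2, 4 and 6. The log2 difference was 0.78 (95% interval -1.48 to 3.04; edgeR adjusted p = 0.638), an interval that holds differences of either sign. Clec9a, the receptor for dead cells on cDC1, was read at 11.7, 6.02 and 0 CPM in islet libraries 2, 4 and 6, against 3.50, 1.19 and 1.53 CPM in fat libraries 2, 4 and 6. The islet values lay on both sides of the fat values, with within-batch differences of 1.61, 1.94 and -2.02, and the 0 in library 6 allows up to 0.404 CPM.

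For Clec9a the fitted log2 difference was 1.48 (95% interval -1.37 to 4.33; edgeR adjusted p = 0.467). It passed as higher without islet library 6 (log2 2.07, adjusted p = 0.0448) and turned to -0.82 in limma voom (adjusted p = 0.751). Without islet libraries 2 and 4 it was -7.18. The islet library that remains there has no read, so that value depends on the prior count. The direction of Clec9a thus differs between islet libraries. Its exons overlap those of Clec1b on the same strand over 5.59% of their length.

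Xcr1, the chemokine receptor that defines cDC1, was read 17, 1 and 3 times in islet libraries 2, 4 and 6, and 9, 9 and 8 times in fat libraries 2, 4 and 6. That is 1.37 ± 1.78 CPM in the islet libraries, against 0.995 ± 0.178 CPM in the fat libraries (SD, n = 3), a difference within the spread of the islet libraries. Clec9a and Xcr1 were both highest in islet library 2, while Flt3 was lowest there. Itgae, the CD103 integrin subunit of tissue cDC1 and of some T cells, was read 0, 9 and 0 times in islet libraries 2, 4 and 6, and 17, 3 and 5 times in fat libraries 2, 4 and 6. Its means were 0.860 ± 1.49 CPM in the islet libraries, against 0.865 ± 0.650 CPM in the fat libraries. In the fit with no filter neither passed (Xcr1 log2 0.41, edgeR adjusted p = 0.865; Itgae log2 -0.15, adjusted p = 0.957).

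The 2 genes of mature, migrating dendritic cells lay apart from each other. Ccr7, the receptor that guides cells to lymph nodes, was read at 3.83, 3.44 and 3.77 CPM in islet libraries 2, 4 and 6, against 1.42, 0 and 0.706 CPM in fat libraries 2, 4 and 6. All islet libraries lay above the fat libraries, by 1.17, 2.98 and 1.82 within batches 2, 4 and 6 on the log2(CPM + 0.5) scale, and the islet SD was 0.210 CPM, the smallest of the 9 genes in islet. The fitted log2 difference of 2.32 (95% interval -0.12 to 4.75) did not pass (edgeR adjusted p = 0.173). It was 3.27 without fat library 2 and 1.70 without fat library 4, and passed in neither. Fscn1, which bundles actin in dendrites of mature cells, was read at 0, 0 and 2.96 CPM in islet libraries 2, 4 and 6, against 10.0, 9.29 and 4.47 CPM in fat libraries 2, 4 and 6. Among islet libraries 6 alone had Fscn1 reads, all 3 lay below the fat libraries, and the within-batch differences were -4.40, -4.29 and -0.52.

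The log2 difference of Fscn1 was -2.81 (95% interval -5.49 to -0.14), and it did not pass over all genes (edgeR adjusted p = 0.136). Fscn1 passed as lower with no filter (adjusted p = 0.00438), in limma voom (0.0348) and without islet library 6 (0.00213), where both remaining islet libraries are at 0. Without islet libraries 2 and 4 its log2 difference was -1.49. Fscn1 is also expressed by endothelial and mesenchymal cells, whose markers were higher in every fat library than in any islet library, and their part in the difference was not tested.

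Of the 7 tested genes, Dpp4 and Ccr7 lay above in every islet library, Zbtb46, Batf3 and Fscn1 lay below, and 2 overlapped. Over all tested genes the islet libraries lay above all fat libraries for 18.2% and below them for 22.3%, 40.6% in all, against 5 of these 7. To compare levels between genes, CPM was divided by the exon length in kilobases. On that scale Batf3 was highest in both tissues, at 4.53 in islet and 12.4 in fat macrophages, on the 52.0th and 77.4th percentile of tested genes. In islet it was followed by Dpp4 (2.98), Ccr7 (1.86), Clec9a (1.79), Flt3 (0.558), Fscn1 (0.328), Xcr1 (0.308), Itgae (0.188) and Zbtb46 (0.169), and the library ranges of each pair of neighbours in that order overlapped.

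In fat macrophages the order of these length-scaled levels was Batf3, Zbtb46 (2.65), Fscn1 (2.63), Dpp4 (0.786), Clec9a (0.630), Ccr7 (0.358), Flt3 (0.322), Xcr1 (0.224) and Itgae (0.189). Batf3 stood clear of Zbtb46 there, and Fscn1 clear of Dpp4, while the library ranges of the other neighbours overlapped. By its mean, Zbtb46 was the lowest of the 9 genes in islet, on the 5.17th percentile, and next to the highest in fat, on the 37.2nd. Its library range overlapped that of Itgae in islet and that of Fscn1 in fat, so neither rank is resolved. Itgax was at 144 CPM per kilobase in islet and 3.53 in fat macrophages.

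Across the 6 libraries, the genes whose log2(CPM + 0.5) followed Zbtb46 most closely were Ddx60 and Trip11 (both Pearson r = 0.999). For Batf3 they were Rab11a and Ly96 (both 0.992), for Fscn1 Zfp369 and Uaca (0.996 and 0.994), and for Dpp4 Twistnb and Cbfb (0.997 and 0.993). For Ccr7 they were Ppm1h and Pnpla7 (0.993 and 0.982), for Flt3 Pofut1 and Gpatch2l (both 0.992), and for Clec9a Nlrc4 and Arf4 (0.985 and 0.979). With 6 points that share the tissue contrast such values are common: 625 of 8183 genes reached r of 0.9 with Zbtb46 and 388 with Dpp4, against 46 with Flt3 and 78 with Clec9a.

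Other genes of the core conventional dendritic cell program went both ways. Over all tested genes 8.97% were higher and 10.5% lower, shares to set beside the counts of this and the following lists. Of 16 tested from a list of 19, 5 were higher (Runx3, Ass1, Haao, Slamf7 and Traf1), 3 were lower (Kmo, Adam19 and Jaml) and 8 did not pass, with a median log2 difference of 1.07. Runx3, a transcription factor that cytotoxic T cells and cDC also use, averaged 301 ± 59.9 CPM in the islet libraries, against 8.48 ± 3.02 CPM in the fat libraries (log2 5.15 ± 0.36, SE; edgeR adjusted p = 8.81e-05). Ass1, which makes argininosuccinate from citrulline, averaged 67.2 ± 30.8 CPM in islet against 1.80 ± 0.704 CPM in fat. Kmo, an enzyme of tryptophan breakdown, had 1 read in the islet libraries together and averaged 25.8 ± 5.41 CPM in the fat libraries. With the reads of each tissue pooled over its summed library sizes, fat held 408 times as much (95% counting interval of the ratio 73.0 to 16136). Those higher numbered 3 without islet library 2, fat library 4 or fat library 6.

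cDC1-associated genes other than the 9 rose in part. Of 14 tested from a list of 17, 4 were higher (Cadm1, Tlr12, Irf8 and Id2), Naaa was lower and 9 did not pass, with a median of 0.20. Cadm1, an adhesion molecule of cDC1, averaged 482 ± 144 CPM in the islet libraries, against 8.32 ± 2.16 CPM in the fat libraries (log2 5.85 ± 0.38, SE; edgeR adjusted p = 7.49e-05). Tlr12, a receptor for profilin of protozoa, averaged 28.9 ± 12.1 CPM in islet against 0.480 ± 0.538 CPM in fat. Irf8, which cDC1, monocytes and macrophages all use, averaged 303 ± 51.0 CPM in islet against 122 ± 8.87 CPM in fat. Naaa, an amidase of the lysosome, averaged 29.5 ± 11 CPM in the islet libraries, against 164 ± 43.1 CPM in the fat libraries, 5.58-fold lower (edgeR adjusted p = 0.00199). Without fat library 2 those higher numbered 2, and Irf8 no longer passed (adjusted p = 0.0534). Those lower numbered 2 with RLE or upper-quartile factors, in DESeq2, in limma voom and with a filter of 1 CPM.

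**Figure D3:**
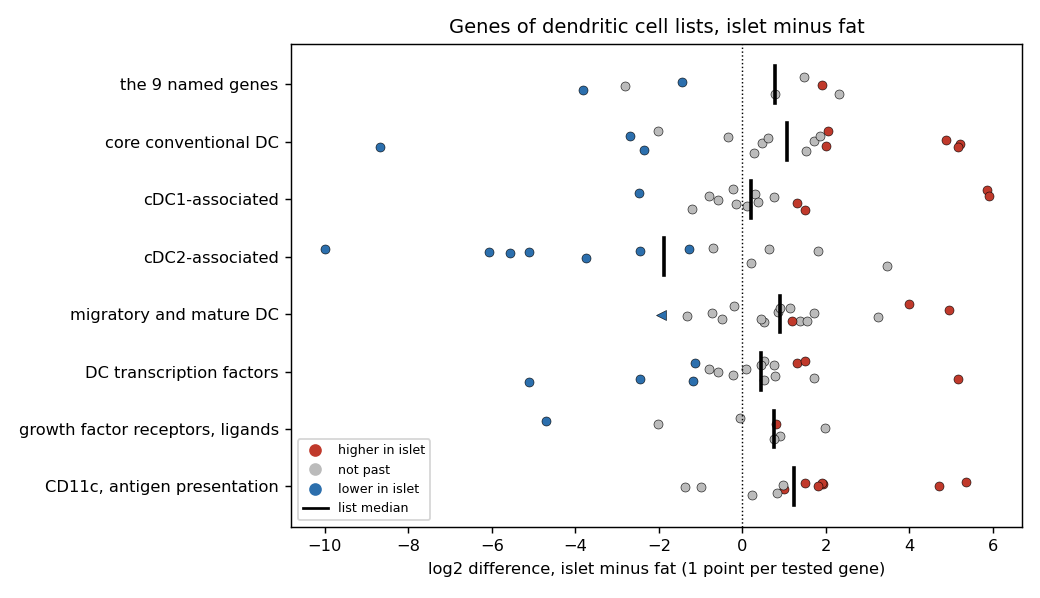
Log2 difference, islet minus fat, of each tested gene (1 point) in the 9 dendritic cell genes and in lists around them; red is higher and blue lower in islet past the threshold, the bar is the list median. The arrowhead is Ccl17, placed at the bound that its absence from islet libraries allows, and Kmo and Flt3l, with 1 and 2 islet reads, are placed at their count ratio.

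cDC2-associated genes were lower or did not pass in the edgeR fit. Of 12 tested from a list of 15, 7 were lower, 0 were higher and 5 did not pass in edgeR, and the median log2 difference was -1.87. At an unadjusted p under 0.05 3 were higher, DESeq2 and the fit with no filter called 2 higher, limma voom 0, and the fit with a replicate block called 1 higher and 6 lower. Clec10a, a galactose lectin shared by cDC2 and macrophages, was read at 1.21, 0.287 and 0 CPM in islet libraries 2, 4 and 6, against 414, 538 and 512 CPM in fat libraries 2, 4 and 6 (log2 -10.01 ± 0.73, SE; edgeR adjusted p = 9.79e-05). Mgl2, its close relative, averaged 12.4 ± 7.90 CPM in the islet libraries, against 572 ± 77.2 CPM in the fat libraries. Irf4, the factor that cDC2 depend on, averaged 10.5 ± 1.25 CPM in islet against 57.7 ± 11.9 CPM in fat, and Klf4 32.3 ± 17.7 CPM in islet against 1108 ± 139 CPM in fat. The other 3 were Cd209a, Notch2 and Esam. Without islet library 4, 3 genes of the list were higher.

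Genes of maturation and migration other than Ccr7 and Fscn1 mostly did not pass. That held for all tested genes too, of which 19.4% were called in either direction. Of 17 tested from a list of 22, Zmynd15, Il12b and Tmem123 were higher, Ccl17 was lower and 13 did not pass, with a median of 0.89. Zmynd15 averaged 124 ± 28.3 CPM in the islet libraries, against 7.75 ± 2.32 CPM in the fat libraries, and 12.5% of its exon length overlaps another gene. Il12b, the p40 subunit of interleukin 12, was read at 17.7, 2.01 and 32.2 CPM in islet libraries 2, 4 and 6, against 1.51, 0 and 0 CPM in fat libraries 2, 4 and 6 (log2 4.95 ± 1.33, SE; edgeR adjusted p = 0.0320). Ccl22, a chemokine of mature dendritic cells, was read at 3.43, 0 and 75.4 CPM in islet libraries 2, 4 and 6, against 3.69, 1.59 and 3.06 CPM in fat libraries 2, 4 and 6, so 1 islet library held nearly all of its reads (adjusted p = 0.153). Ccl17 had no islet reads and averaged 2.41 ± 0.619 CPM in the fat libraries, at least 3.87-fold lower in islet when each islet library is set to 3 counts (edgeR adjusted p = 0.0204, and 0.0973 with the library number as a replicate block). Those higher numbered 1 without fat library 4 or 6, 8 without islet library 4 and 6 with no filter. Ccl17 did not pass without fat library 2, 4 or 6.

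Among 17 transcription factors and cofactors, some of which stand in the lists above, 3 were higher (Runx3, Irf8 and Id2), 4 lower (Klf4, Irf4, Rbpj and Tcf4) and 10 did not pass. Those higher numbered 1 and those lower 2 without fat library 2, and 6 were higher without islet library 4. Of 7 tested growth factor receptors and ligands, Csf2ra, a chain of the GM-CSF receptor, was higher at 263 ± 30.0 CPM in the islet libraries, against 151 ± 17.6 CPM in the fat libraries (edgeR adjusted p = 0.0420). Flt3l, the ligand of FLT3, had 2 islet reads, averaged 3.20 ± 1.13 CPM in the fat libraries and was lower in islet (edgeR adjusted p = 0.0357). With reads pooled in the same way as for Kmo, fat held 26.2 times as much Flt3l (95% counting interval of the ratio 7.05 to 220.1). With the library number as a block both were lost (edgeR adjusted p = 0.0843 for Csf2ra and 0.0847 for Flt3l), as they were without any 1 fat library. Csf2ra was also lost with RLE or upper-quartile factors, with no filter (0.113) and without islet library 2 or 4 (0.0792 and 0.0632). With no filter, and without islet library 4, 1 other gene of this list was higher, and DESeq2 called 2 genes of the list higher. Flt3l was also lost without islet library 4 (0.0562), and 22.1% of the exon length of Flt3l overlaps another gene.

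CD11c and the antigen presentation genes that macrophages share with dendritic cells were higher or did not pass. Of 12 tested, 7 were higher (Itgax, Cx3cr1, Ciita, Cd74, H2-Aa, H2-Ab1 and H2-Eb1), 0 were lower in edgeR, DESeq2 and limma voom, and 5 did not pass, with a median of 1.24. At an unadjusted p under 0.05, 1 gene of the list, Cd80, was lower. Cx3cr1, the fractalkine receptor, averaged 510 ± 219 CPM in the islet libraries, against 19.5 ± 5.57 CPM in the fat libraries. Those higher numbered 4 without fat library 2 or 4. The costimulatory gene Cd80 was read at 6.25, 1.43 and 7.68 CPM in islet libraries 2, 4 and 6, against 17.5, 13.3 and 10.2 CPM in fat libraries 2, 4 and 6 (edgeR adjusted p = 0.133).

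**Figure D4:**
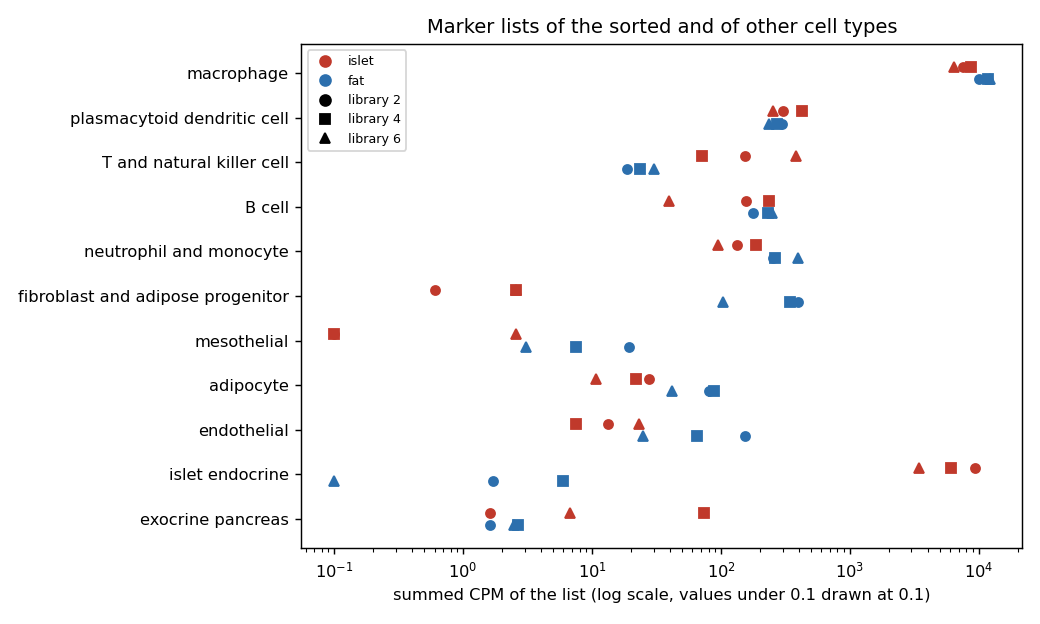
Summed CPM (horizontal, log scale) of each cell type marker list by library, islet in red and fat in blue; sums under 0.1 are drawn at 0.1. Fibroblast, adipocyte and endothelial sums are lower in every islet library, and endocrine sums are higher.

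Markers of other cells differed in level between the tissues. Of 11 plasmacytoid dendritic cell markers, 4 had no islet reads, and the list summed to 252 to 427 CPM over the islet libraries and 235 to 296 CPM over the fat libraries, most of it from Siglech and Tcf4. Of the B cell markers, Cd79a and Ebf1 had no islet reads, and the list sum of 39.5 to 238 CPM over the islet libraries and 177 to 247 CPM over the fat libraries came mostly from Ighm. The neutrophil and monocyte markers summed to 134, 188 and 95 CPM in islet libraries 2, 4 and 6, against 252 to 398 CPM over the fat libraries, and 4 of these 8 had no islet reads. Adipocyte markers summed to 10.8 to 27.6 CPM over the islet libraries and 42.0 to 87.8 CPM over the fat libraries, mesothelial markers to 0 to 2.56 CPM in islet and 3.06 to 19.4 CPM in fat, and exocrine markers to 1.61 to 74.0 CPM in islet and 1.61 to 2.65 CPM in fat. Of 12 macrophage markers, Fcgr3, Mertk, C5ar1, Maf and Lyz2 were lower in islet and 7 did not pass. The macrophage markers summed to 6439 to 8646 CPM over the islet libraries and 9943 to 12126 CPM over the fat libraries. With the genes of other cell types left out of the fit, the log2 differences of Zbtb46, Batf3 and Dpp4 were -3.80, -1.45 and 1.91, and all 3 passed. That fit drops the rows of marker genes and leaves the reads of these 3 genes as they were. It cannot show how many of those reads came from other cells, which was not tested.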

How the data were processed

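Counts per gene were available for 3 islet and 3 fat macrophage libraries. The values deposited by the authors are raw counts of reads per gene, not normalised. STAR, featureCounts, Subread 1.6.4 and GRCm38 are named in the submitters' processing notes, while neither the strand setting nor the annotation is stated there. Without a stated strand setting, reads of genes that overlap on opposite strands may be counted together.

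Counts were fitted in R 4.3.3 with edgeR 4.0.16 (filterByExpr by tissue, TMM factors, robust quasi-likelihood, tissue as the only term, islet minus fat), and p-values were adjusted over 12152 genes. In simulated data, 41 of 100 genes changed 4-fold and 1 of 100 changed 2-fold were recovered, with 1 unchanged gene called. Those data held 11952 unchanged genes of 12152, whereas 19.4% of genes were called between the measured tissues. Benjamini-Hochberg adjustment is stricter where fewer genes change. Recovery with as many changed genes as were called here was not tested. Exon lengths, coordinates and overlaps came from GENCODE M21, found for 50376 identifiers (99.56%). Of 203 listed symbols, 202 were found. CPM of single libraries use TMM-adjusted sizes, and floors (3 counts) and counting intervals hold no other error than that of counting, as PCR copies of 1 molecule cannot be separated. Precision is limited by totals of 4089980 to 9235591 counts.

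The 9 genes and the lists were chosen with earlier results of these data known, from general knowledge. Named genes were the 9, the sort markers, Itgax, the 2 smallest p values in each direction per list, the 2 highest levels per marker list and the 2 genes most like each tested gene (average log2 CPM of at least 3); any other gene was named with its values known. Alternatives were DESeq2 1.42.0, limma 3.58.1 voom, size factors by RLE or upper quartile, no filter, 1 CPM in every library of a tissue, a replicate block, other cell types' genes left out, each library left out, and islet libraries 2 and 4 left out. Islet and fat libraries of 1 number were taken as paired, from the word autologous in the design text, and the labels give the number as the batch. Whether a number stands for 1 animal or a pool is not stated, so within-batch differences cannot be assigned to animals or to batches. The main fit had tissue as its only term, and the number was a block in an alternative. Deviations from the tissue mean correlated at 0.053, 0.042 and -0.024 for numbers 2, 4 and 6 (across genes). The p-values measure the spread between these libraries, except in the fit without islet libraries 2 and 4, which holds no islet spread.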

Additional observations from a re-analysis of the deposited data

How the results depend on the processing

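Of the 3 genes called, Zbtb46 passed in all 15 alternatives, Batf3 in 12 and Dpp4 in 10. The 15 include the fit without islet libraries 2 and 4, whose p-values hold no islet spread. The genes called over the whole table numbered 466 to 1649 higher and 593 to 2022 lower when 1 library was left out, and 2064 and 2916 without islet libraries 2 and 4, against 1090 and 1271. With the library number as a replicate block they numbered 884 and 1103, and no call among the 9 genes changed. When 1 library was left out, the dendritic cell genes called numbered 0 to 2 higher and 1 to 3 lower, and the log2 differences ran from -1.69 to -1.26 for Batf3, from 1.51 to 2.20 for Dpp4, from 0.45 to 2.07 for Clec9a, from 1.70 to 3.27 for Ccr7 and from -8.80 to -2.26 for Fscn1. Without islet libraries 2 and 4, Dpp4 was at 1.0, Fscn1 at -1.49 and Clec9a at -7.18, where the spread of the 1 islet library is taken from fat. Limma voom gave -0.82 for Clec9a and -4.38 for Fscn1, which passed there and with no filter (-2.86). Adgre1 turned to -0.16 without islet libraries 2 and 4. The cause of these changes was not tested. Among 22 other named genes, 301 values kept their direction and side of the threshold, 23 lost a call, 5 gained one and 1 turned. Leaving out 1 library moved the Xcr1 and Itgae difference in mean CPM, islet minus fat, between -0.65 and 0.92 and between -0.86 and 0.43.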

Other observations

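Within the lists of other cells, single markers differed widely in level. Il7r, the interleukin 7 receptor chain, had 136, 64.2 and 371 CPM in islet libraries 2, 4 and 6, against 3.50, 2.92 and 9.53 CPM in fat libraries 2, 4 and 6, while Cd4 had 15.9, 6.59 and 11.6 CPM in islet libraries 2, 4 and 6, against 10.5, 17.9 and 10.8 CPM in fat libraries 2, 4 and 6, and 8 of the 14 T and natural killer cell markers, among them Cd3e, Cd3d, Cd3g and Trac, had no islet reads. Siglech, a lectin of plasmacytoid dendritic cells and of microglia, had 173, 266 and 124 CPM in islet libraries 2, 4 and 6, against 31.2, 38.3 and 23.4 CPM in fat libraries 2, 4 and 6, and Runx2 was higher in islet as well (edgeR adjusted p = 0.00402). Tcf4 of the same list was lower, at 106 ± 17.0 CPM in the islet libraries, against 232 ± 26.8 CPM in the fat libraries (SD, n = 3; edgeR adjusted p = 0.0111), and Klk1, Spib, Pacsin1 and Dntt had no islet reads. Ighm, the immunoglobulin mu chain, had 146, 216 and 36.8 CPM in islet libraries 2, 4 and 6, against 162, 218 and 240 CPM in fat libraries 2, 4 and 6, while Cd22 had 6.85, 15.8 and 1.48 CPM in islet libraries 2, 4 and 6, against 0.0946, 0 and 2.12 CPM in fat libraries 2, 4 and 6, and Cd79a had no islet reads. Over all tested genes, the islet libraries lay above all fat libraries for 18.2%, so the lack of overlap for Il7r and Siglech is given as a description.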
